A study of Owenia fusiformis with 26 samples.

Results

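The regions described here were the 1000 narrow open chromatin regions with the highest summit enrichment in coeloblastula embryos of the annelid *Owenia fusiformis*. They were chosen by their fold enrichment in the first of 2 ATAC-seq replicates. A peak of that replicate entered the choice if it was under 2000 bases long and had 1 or more bases in common with any peak called in the other. Of the 118443 peaks of replicate 1, 54965 met both conditions and are called narrow shared regions, and the 1000 with the highest fold enrichment were taken from these. The remaining 53965 narrow shared regions, and the 931 shared regions of 2000 bases or more (broad shared regions), serve for comparison.

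ATAC-seq uses the Tn5 transposase, which inserts sequencing adaptors into DNA that is not covered by nucleosomes or other tightly bound proteins. A pile-up of reads therefore marks accessible DNA. In animal genomes such sites are typically promoters, enhancers and other sites where transcription factors bind, and the highest and sharpest pile-ups are often found at promoters.

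Both libraries came from whole embryos at 5 h post fertilisation (hpf), the stage before gastrulation, with 50000 cells from about 900 blastulae each. No treatment, genotype or strain was given for these embryos. The series also holds 24 RNA-seq libraries of 12 stages, which were not used here. The labels do not say whether the ATAC-seq replicates came from separate spawnings, so the spread between them may be technical. Since every library pools all the cells of the embryo, a region open in more cells and a region cut more often per cell cannot be told apart. No genome of the build of the peak files was used here. The study names an assembly of the species, but not the version whose scaffolds the peak files use. The regions are thus named by scaffold and position as in the peak files (first base counted as 1), with no gene, annotation or sequence.

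For each peak, the peak caller gave the fold enrichment at the summit, the base with the highest pile-up, over the reads expected there from the local background. The pile-up and the local background were solved from the deposited fold and p-value, as both follow from them under the caller's Poisson model. All 118443 summits of replicate 1 and all but 1 of the 73474 of replicate 2 came out within 0.05 of a whole number of reads. The lowest local background, which the caller applies to the whole genome, was 24.04 reads in replicate 1 and 13.6 reads in replicate 2, a ratio of 1.76. Replicate 1 is thus the deeper library by this measure. Intervals of fold below are exact Poisson 95% intervals of the summit pile-up, with the background taken as known. They cover counting error only, as reads are not tagged molecules. The summit is the highest base of its peak, and the intervals do not allow for that choice.

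By the choice itself, fold enrichment in replicate 1 ran from 6.85 to 30.2 in the 1000 regions, with a median of 8.11. In the other narrow shared regions it ran from 1.26 to 6.85, with a median of 2.68. The distribution was steep, since 219 of the 1000 reached a fold of 10 and the strongest 100 lay between 12.1 and 30.2. The summit pile-ups behind these values were 171 to 4386 reads, with a median of 245, against a median of 76 reads in the other narrow shared regions.

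The threshold did not fall at a gap. The last regions inside it were Scaffold03:21808803-21810017, Scaffold25:248607-249453 and Scaffold03:2152552-2153435, each with a fold of 6.85 from 226, 194 and 333 reads at the summit. The first regions outside were Scaffold08:15688484-15689344, Scaffold02:17142455-17143057 and Scaffold13:741772-742839, also each at 6.85, from 193, 177 and 203 reads. Membership near the threshold was therefore within counting error. The interval of 426 of the 1000 reached below the lowest fold in the list, and that of 765 of the other narrow shared regions reached up to it.

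The conditions on overlap and length hardly altered the list. When the 1000 strongest peaks under 2000 bases were taken whether or not replicate 2 had a peak there, 989 of them were already among the 1000. Only 11 of the 62529 narrow peaks without an overlap had a fold of 6.85 or more, the highest being 9.63 at Scaffold05:23401232-23401472, a peak of 241 bases whose summit was 8236 bases from any summit of replicate 2. With the broad peaks admitted, 994 of the 1000 stayed. The 6 broad regions that entered had folds of 7.26 to 10.2, and the strongest was Scaffold29:612918-614998, with 1531 reads at its summit and a local background of 149 reads.

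The second replicate was not used to rank the regions. There, the peak overlapping a region had a median fold of 6.77 in the 1000 (quartiles 5.62 and 8.41, range 2.53 to 27.8), against 2.57 in the other narrow shared regions (quartiles 2.26 and 3.08) and 2.76 in the broad ones. The smallest −log10 q of an overlapping replicate 2 peak was 5.08 in the 1000, and the median was 53.2, against a median of 5.91 in the other narrow shared regions. The matching peak was among the top 1% of replicate 2 peaks by fold for 560 of the 1000, among the top 5% for 943 and among the top 10% for 983. Of the other narrow shared regions, 0.343%, 5.02% and 11.6% reached these ranks. No test was run between these groups of regions, since the regions come from the same pair of libraries and are not replicates of each other.

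**Figure D1:**
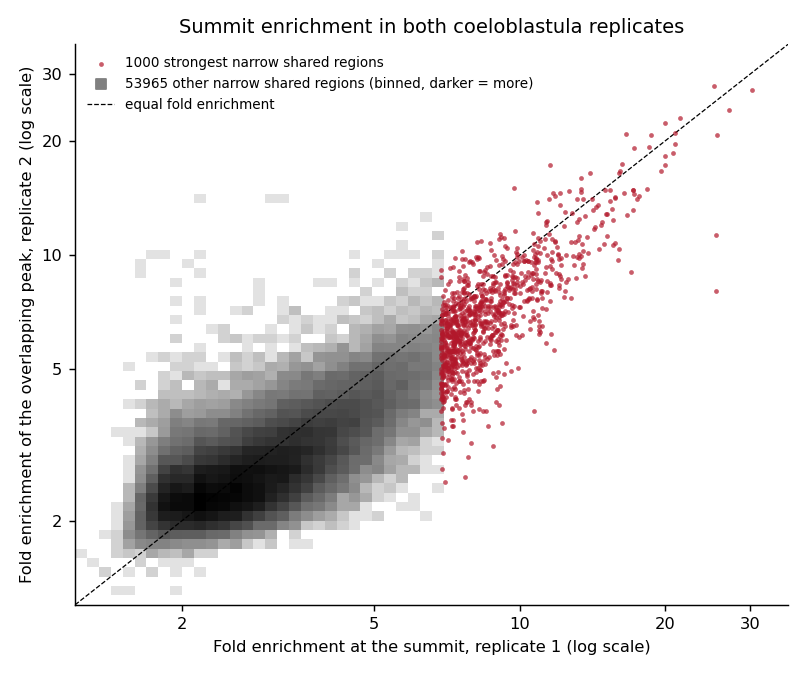
Fold enrichment at the summit in replicate 1 (x axis) and of the overlapping peak in replicate 2 (y axis), both on log scales. Red points are the 1000 regions, which start at 6.85 on the x axis because they were chosen there; grey squares bin the 53965 other narrow shared regions, and most red points lie below the dashed line of equal fold.

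When the same rule was applied to replicate 2, 677 of the 1000 regions (67.7%, Wilson 95% interval 64.7 to 70.5) overlapped one of the 1000 narrow peaks it chose, and 677 of those 1000 (67.7%) overlapped one of the regions. Of the other narrow shared regions, 332 (0.615%) overlapped a peak of that choice. The overlap depended on rank. It held for 99 of the 100 strongest regions, for 145 of the 150 at ranks 101 to 250, for 188 of the 250 at ranks 251 to 500 and for 245 of the 500 at ranks 501 to 1000. Beyond the list it held for 163 of the 1000 regions at ranks 1001 to 2000 and for 104 of the 3000 at ranks 2001 to 5000. The share thus fell with rank. The groups of ranks are shorter than the 1000 peaks they were set against, so these counts do not say whether replicate 2 would order the regions alike.

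**Figure D2:**
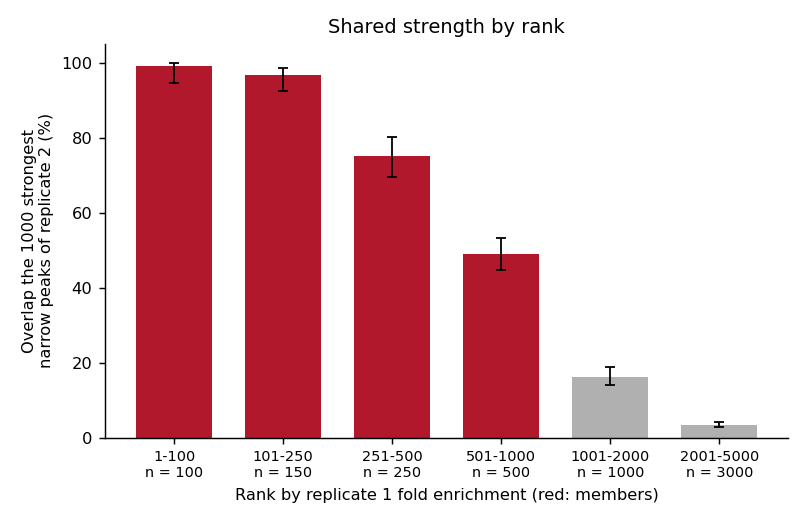
Percentage of regions (y axis) that overlap the 1000 strongest narrow peaks of replicate 2, by rank in replicate 1 (x axis), with Wilson 95% intervals. Red bars hold the 1000 regions and fall from 99% to 49%, and grey bars hold the ranks beyond, at 16.3% and 3.47%.

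Enrichment was lower in replicate 2 for 860 of the 1000 regions, with a median ratio of replicate 2 to replicate 1 of 0.81 (quartiles 0.71 and 0.92). In the other narrow shared regions the median ratio was 0.97 and 55.9% were lower. A shared region needed a called peak in replicate 2, and in these weaker regions that leaves out low replicate 2 values. The part of this condition in the ratios, and of taking the overlapping peak with the highest fold, was not tested. The nearest ranks were like the 1000, with median ratios of 0.78 at ranks 1001 to 2000 and 0.81 at ranks 2001 to 5000, and in the broad shared regions the median was 0.87 and 84.4% were lower. The regions were chosen for high values in replicate 1, and a choice of that kind favours chance highs there. In the 1000 narrow peaks chosen on replicate 2 the choice works the other way. Their median ratio of replicate 1 to replicate 2 was 1.06 (medians 7.71 and 7.25). It was 1.07 in the narrow shared replicate 2 peaks below those 1000, so the value was not particular to the strong ones. What part the choice has in these ratios was not tested. Relative to each library's lowest background, the median summit pile-up of the 1000 was 10.2 times in replicate 1 and 8.37 times in replicate 2, and that of the other narrow shared regions was 3.16 and 3.08 times.

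The exact Poisson intervals of the replicates did not overlap in some regions. In 315 of the 1000 regions the whole interval of fold in replicate 2 lay below that in replicate 1, and in 6 it lay above. The same was found in 2.12% and 1.14% of the other narrow shared regions, whose lower pile-ups give wider intervals. The intervals hold counting error and not the spread between libraries, and the choice on replicate 1 weighs on the count of lower values. Within the 1000, the order of the regions was partly kept, with a Spearman rho of 0.68 and a Pearson r of 0.76 on log2 fold over the 1000 regions, which share both libraries and a range cut at the threshold.

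The 10 strongest regions had folds of 20.7 to 30.2 in replicate 1. The first of them, Scaffold26:17067-17354, was 288 bases long. It had a fold of 30.2 in replicate 1 (interval 28.8 to 31.7, 1622 reads) and 27.2 in replicate 2 (25.2 to 29.4, 638 reads). Scaffold32:58974-59581 followed with 27.1 and 24.1, and Scaffold04:1094993-1095696 with 25.6 and 20.7, where the summits lay on the same base in both libraries. In these 3 regions replicate 2 was the lower one, and only at Scaffold04:1094993-1095696 were the intervals apart.

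Scaffold28:5893663-5894440 had 25.2 in replicate 1 and 27.8 in replicate 2, the highest value of that library. Scaffold09:5922836-5923861 had 21.5 and 23.0, Scaffold07:22130544-22131069 had 21.0 and 19.6, Scaffold04:8344994-8346046 had 21.0 in both, and Scaffold02:7516677-7517437 had 20.7 and 18.6. In each of these 5 the intervals of the replicates overlapped.

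The other two of the 10 lay 7462 bases apart on the same scaffold and were both far lower in replicate 2. Scaffold14:14210043-14210729 had a fold of 25.5 in replicate 1 (23.6 to 27.6, 666 reads) and 8.07 in replicate 2 (6.68 to 9.65, 117 reads). Its ratio of 0.32 was the lowest of all 1000. Scaffold14:14217472-14218160 had 25.5 (23.8 to 27.2, 892 reads) and 11.3 (9.63 to 13.1, 164 reads), a ratio of 0.44. The summits of these regions were only 8 and 3 bases apart between the libraries, and the local background in replicate 2 was at its lowest value at both. The libraries thus placed these summits alike and differed in their height.

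**Figure D3:**
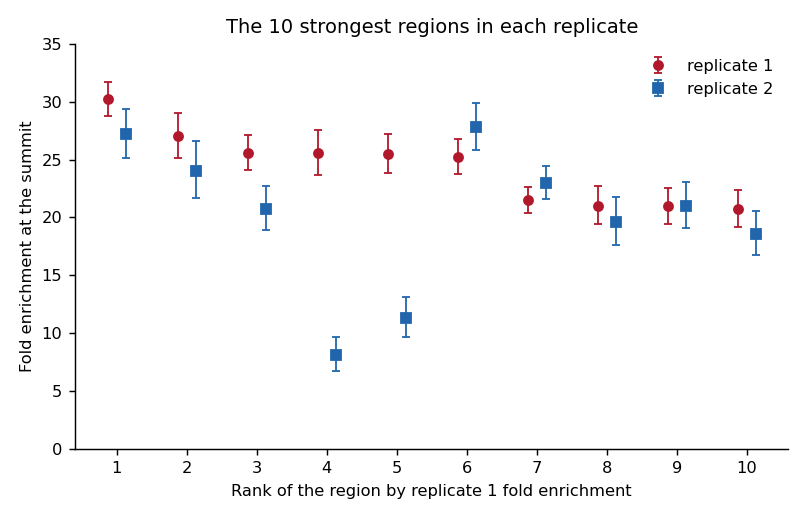
Fold enrichment (y axis) of the 10 strongest regions by rank (x axis), in replicate 1 (red circles) and replicate 2 (blue squares), with exact Poisson 95% intervals of the summit pile-up. Ranks 4 and 5, the neighbouring regions on Scaffold14, have 25.5 each in replicate 1 but 8.07 and 11.3 in replicate 2.

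At the other end, the lowest folds in replicate 2 were 2.53 at Scaffold31:3200734-3201712, 2.60 at Scaffold09:18661549-18662095 and 2.73 at Scaffold11:11891108-11891822. These regions had 6.99, 7.72 and 6.91 in replicate 1. Their replicate 2 peaks rested on 36, 37 and 39 reads at summits 25, 1 and 5 bases away. The highest ratios belonged to the 2 shortest regions of the list. Scaffold26:1782-1905, of 124 bases, had 9.74 in replicate 1 (243 reads) and 15.04 in replicate 2 (219 reads), a ratio of 1.54. Scaffold10:1383672-1383796, of 125 bases, had 11.5 (288 reads) and 17.3 (291 reads), a ratio of 1.495. In both the summits fell on the same base in the 2 libraries. The third shortest region, Scaffold10:19503804-19503932, of 129 bases, also had its summits on one base but the opposite order, with 6.97 in replicate 1 and 5.47 in replicate 2.

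The replicates placed the summits of the 1000 regions close together. The median distance was 10 bases, against 57 bases in the other narrow shared regions and 207 bases in the broad ones. The summits were on the same base in 72 of the 1000 (7.2%, against 1.91% of the other narrow shared regions), within 10 bases in 521 (52.1%, against 19.6%) and within 50 bases in 813 (81.3%, Wilson 95% interval 78.8 to 83.6, against 47.0%). The next ranks were again closer to the list, with medians of 15 bases at ranks 1001 to 2000 and 21 bases at ranks 2001 to 5000. Among regions of 100 to 299 bases the median was 6 bases in the 81 regions of the list and 35 bases in the others, and among those of 1000 to 1999 bases it was 12 bases in 215 regions and 140 bases in the others. The pile-ups of the 1000 were also higher (median 245 reads, against 76), and their part in these distances was not tested. Replicate 2 had its summit at the higher position in 428 regions and at the lower in 500.

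The counts did not decline evenly with distance. In steps of 20 bases from 0, the counts were 647, 139, 44 and 16 regions up to 79 bases, then 27, 29 and 30 regions in the steps from 80 to 139 bases, and 18 and 11 in the next steps. In the other narrow shared regions the share declined at each of these steps, from 28.9% in the first to 2.88% between 160 and 179 bases. The exact Poisson 95% intervals of the counts from 60 to 79 bases (9.15 to 26.0) and from 120 to 139 bases (20.2 to 42.8) overlap, and the feature was picked out after the values were seen.

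**Figure D4:**
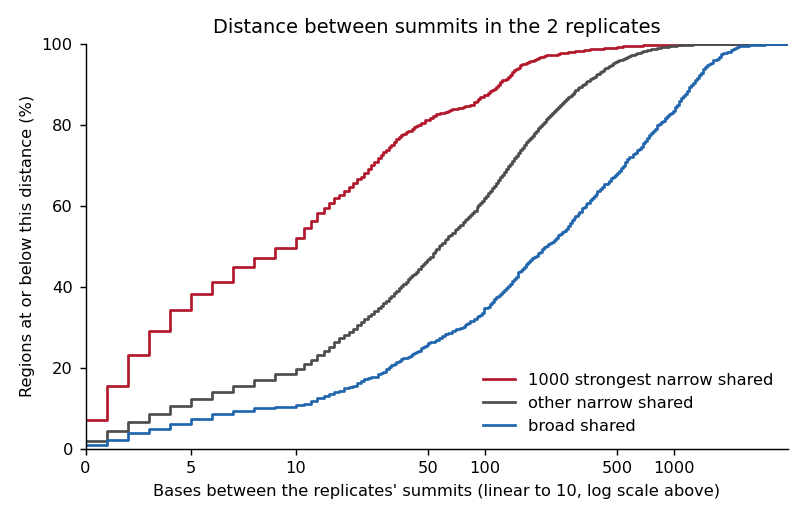
Cumulative percentage of regions (y axis) by the distance in bases between the summits of the replicates (x axis, linear to 10 bases and log-scaled above). Red is the 1000 regions, grey the other narrow shared regions and blue the broad shared regions; at 50 bases the curves stand at 81.3%, 47.0% and 26.1%.

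Only 31 of the 1000 (3.1%) had summits over 200 bases apart, against 19.5% of the other narrow shared regions and 50.6% of the broad ones. The largest distances were 1064 bases at Scaffold22:9084595-9086487, 1058 bases at Scaffold22:9073488-9075241 and 701 bases at Scaffold08:14928829-14930066. Each of these regions is over 1000 bases long and overlaps 2 peaks of replicate 2. Across the list, 931 regions overlapped a single replicate 2 peak and 69 overlapped 2 or more, which is 6.9%, against 10.0% of the other narrow shared regions and 68.2% of the broad ones. A mutual overlap of at least 50% was found for 908 of the 1000 (90.8%) and for 58.0% of the other narrow shared regions.

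The median length of the 1000 regions was 712 bases in replicate 1 and 599 bases in replicate 2, against 502 and 302 bases in the other narrow shared regions. Regions of the next ranks had like lengths, with medians in replicate 1 of 727 bases at ranks 1001 to 2000 and 729 bases at ranks 2001 to 5000. Of the 1000, 8.1% were under 300 bases, against 25.6% of the others, and 21.5% of the 1000 were 1000 bases or longer, against 15.6%. Length in replicate 1 was also set against fold in replicate 2, which did not rank the regions. Spearman rho was −0.018 over the 1000 regions and 0.161 over the others. The choice on replicate 1 also limits these folds in part, since the folds of the replicates were related. Between length and fold both in replicate 1, where the choice cuts the range of fold, rho was −0.065 and 0.488. The median fold in replicate 1 was 8.19, 8.19, 8.24 and 7.86 in regions of 100 to 299, 300 to 599, 600 to 999 and 1000 to 1999 bases. The longest regions were Scaffold02:29768952-29770947, Scaffold07:5618284-5620257 and Scaffold28:3145640-3147605, with 1996, 1974 and 1966 bases and folds of 6.90, 6.94 and 8.26 in replicate 1. Their folds in replicate 2 were 4.56, 5.14 and 4.98. Length and fold of the same replicate come from the same pile-up of reads, and are not independent measures.

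The local background was slightly higher around the strongest regions, most of all at the top ranks. It had a median of 27.6 reads in replicate 1 and 15.04 reads in replicate 2, against 25.7 and 14.6 reads around the other narrow shared regions and 35.6 reads in replicate 1 around the broad ones. It was at its lowest value for 29.2% of the 1000 in replicate 1 (Wilson 95% interval 26.5 to 32.1) and for 34.6% in replicate 2, against 40.0% and 37.8% of the other narrow shared regions. By rank, its median in replicate 1 was 31.2 reads at ranks 1 to 100 and 28.4 reads at ranks 101 to 250. It was 26.8 reads at ranks 251 to 500 and 501 to 1000, close to the 26.3 reads at ranks 1001 to 2000 and 2001 to 5000. The reads of a peak count in its own local background, and how much of the difference comes from them was not tested.

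Of the 244 narrow shared regions whose local background in replicate 1 was over 4 times the lowest, 7 were among the 1000. The share was 0.7% of the 1000 (Wilson interval 0.339 to 1.44) and 0.439% of the other narrow shared regions (0.387 to 0.499). These intervals overlap, and the share in the broad shared regions was 4.40%. In replicate 1 the other narrow shared regions reached pile-ups of 23229 reads and backgrounds of 5575 reads. The 7 were singled out after their values were seen. The highest pile-up of the list, 4386 reads on a background of 407 reads, was at Scaffold01:38241176-38242581, with a fold of 10.7. There, replicate 2 had 2505 reads on 248 reads and a fold of 10.1. The summit in replicate 1 lay 11152 bases before the end of the last peak of that scaffold. Of the other 6, 4 lay on Scaffold22 between 9054588 and 9086487, again near the end of the scaffold as far as peaks reach. They had backgrounds of 147 to 241 reads and folds of 7.26 to 11.3 in replicate 1, against 7.31 to 9.62 in replicate 2. The last were Scaffold04:21261059-21262670 and Scaffold37:23768-24527, with folds of 7.08 and 9.21 in replicate 1 and 6.15 and 9.49 in replicate 2.

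Scaffold ends held a larger share of the strongest regions than of the others, in a comparison that was not planned. A summit within 20 kb of the start of a scaffold, or of the end of its last peak, was found for 18 of the 1000 (1.8%, Wilson 95% interval 1.14 to 2.83) and for 180 of the 53965 other narrow shared regions (0.334%, interval 0.288 to 0.386). In the broad shared regions the share was 0.644% (interval 0.296 to 1.40). Some of the 18 lay close together, as did 3 on Scaffold22, so they are not independent as the intervals assume. The strongest region, at Scaffold26:17067-17354, and the shortest, at Scaffold26:1782-1905, were both among the 18, as was Scaffold28:5893663-5894440, which was 7773 bases from the end of the last peak. Of the 18, 4 had a background over 4 times the lowest. The lengths of the scaffolds were not used here, so the distance to their true ends is not known.

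The 1000 regions were found on 39 of the 40 scaffolds with peaks. They made up 1.82% of all narrow shared regions. Among the 21 scaffolds with 1000 or more narrow shared regions the share ran from 1.19% on Scaffold07 (33 of 2782) to 2.64% on Scaffold10 (52 of 1969). It was 1.73% over these scaffolds together (Wilson 95% interval 1.62 to 1.85) and 2.35% over the 19 smaller ones (2.03 to 2.71). Among the smaller scaffolds the highest shares were 5.71% on Scaffold36 (4 of 70) and 4.71% on Scaffold39 (4 of 85), with intervals that reach down to 2.24% and 1.85%. No region was found on Scaffold40, where 0 of 39 allows a share of up to 7.69% (3 counts of 39; the Wilson upper limit, drawn in the plot by scaffold, is 8.97%). The interval of 7 of the 40 scaffolds lay above 1.82% and that of 2 below, without adjustment for the number of scaffolds. Some of the regions lay close together, as did a pair on Scaffold39, so they are not independent as the intervals assume.

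**Figure D5:**
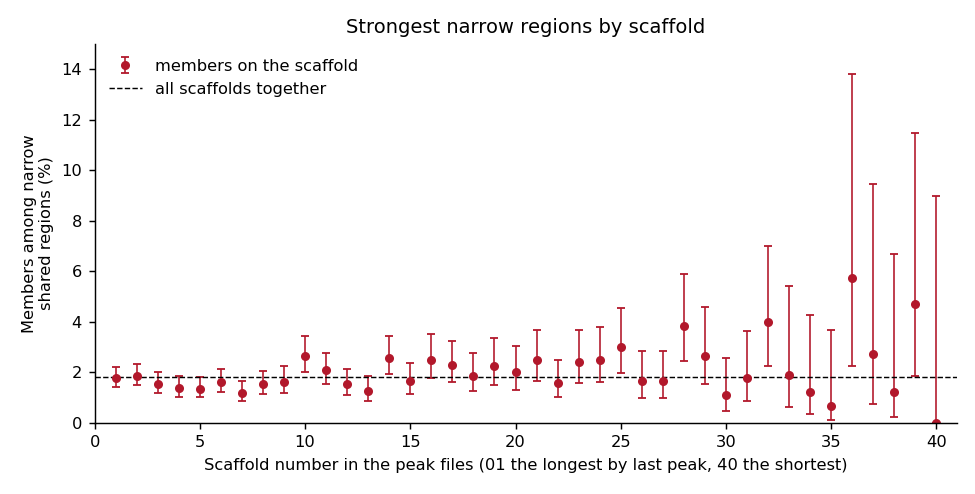
Percentage of narrow shared regions that belong to the 1000 (y axis) on each of the 40 scaffolds (x axis, in the order of the peak files), with Wilson 95% intervals. The dashed line is the 1.82% over all scaffolds; intervals widen to the right, where scaffolds hold few regions.

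The strongest regions were mostly apart from each other. The median distance from a summit to the nearest other of the list on its scaffold was 180287 bases (quartiles 62209 and 370107, over the 998 regions that had one). With regions joined where summits were under 10000 bases apart, 933 stood alone, 32 pairs were formed and 1 group held 3 regions. The group of 3 was on Scaffold22, at 9073488-9075241, 9082153-9082950 and 9084595-9086487, with folds of 10.8, 7.26 and 8.41 in replicate 1 and 9.62, 7.31 and 9.01 in replicate 2, and all belong to the stretch of high background described above. The closest pair, picked after the values were seen, was Scaffold12:94640-94879 and Scaffold12:95377-95598, whose summits were 719 bases apart. They had 10.9 and 7.55 in replicate 1 and 10.6 and 6.15 in replicate 2, and both were on the lowest background.

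The ratios of the replicates were also compared between neighbouring regions of the list. Over the 34 pairs of neighbours under 10000 bases apart, Spearman rho between their log2 ratios of replicate 2 to replicate 1 was 0.46, and it was 0.41 over the 33 pairs without that on Scaffold14. It was 0.09 over the 150 pairs 10000 to 100000 bases apart and 0.03 over the 777 pairs farther apart. The median difference in log2 ratio within a pair was 0.23 in the close pairs and 0.29 and 0.28 in the others. Between the folds of the close pairs in replicate 1, rho was −0.02. The close pairs share both libraries and partly the same background window, and the relation was looked for after the pair on Scaffold14 had been seen.

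Other peaks were also a little farther away. The nearest other summit of replicate 1, strong or weak, was at a median of 2259 bases from the summit of a listed region, against 1572 bases for the other narrow shared regions and 3669 bases for the broad ones. Within 1000 bases there was another summit for 19.6% of the 1000 and for 30.0% of the others. Within 5000 bases there was none for 25.2% (Wilson 95% interval 22.6 to 28.0) and 8.82%. In the broad shared regions these shares were 4.51% and 33.3%, so they were farther from other summits than the 1000. The 1000 regions were longer than the other narrow shared ones, and the part of length in these distances was not tested. The number of other summits within 10 kb had a median of 4 around the 1000 regions and of 5 around the others. The summit lay near the middle of the peak in both groups, at a median of 0.487 of the length from the lower coordinate in the 1000 (quartiles 0.348 and 0.628) and of 0.488 in the others (quartiles 0.327 and 0.647).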

How the data were processed

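The 2 ATAC-seq peak lists of the coeloblastula were used as deposited. Per the submitters' processing notes, peaks were called with MACS2 version 2.2.7.1. Separate lists show that calling was done per replicate, and aligner, control and the version of the study's assembly behind the scaffold names are not given in the sources used here. The deposited columns hold the fold enrichment at the summit (a ratio) and p and q as −log10 values; the smallest −log10 q was 2.00 in both. No interval was repeated within a list, and 38 were identical in both. Depth per library is known only through the lowest local background (24.04 and 13.6 reads).

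The overlapping replicate 2 peak with the highest fold stood for each region. Pile-up and local background were solved from fold, (pile-up + 1) / (background + 1), and the Poisson p; this step was added after the data were seen. Scripts were tested on simulated data and overlaps checked against bedtools 2.31.1 (Python 3.11.15, pandas 2.3.3, scipy 1.17.1).

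Regions named are the 10 strongest, those next to the threshold, the 3 longest and shortest, the 3 with the highest and lowest fold in replicate 2, the 3 with the largest summit distance and the largest group; others are said to be picked later. The regions and rules were chosen with earlier results of these data known. Alternatives were another overlap, length limit, ranking, list size, q limit and leaving out a replicate.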

Additional observations from a re-analysis of the deposited data

How the results depend on the processing

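Replacing the choice of regions moved the following values beyond the spread between replicates or their own 95% interval. That spread was the standard deviation of the medians of the 2 replicates, 0.941 for fold and 79.9 bases for length. It also holds the choice on replicate 1 and the difference in depth, so it is a rough limit. With an upper length of 1000 bases, 62.3% of the regions were among the strongest of replicate 2 and their median length was 631 bases in replicate 1 and 518 bases in replicate 2. With ranking by −log10 p, the median length in replicate 1 was 794 bases, and 11.6% of regions had another within 10 kb, against 6.7% as reported. With 500 regions, all 500 of them from the list of 1000, the median fold in replicate 2 was 8.16, the median distance between summits was 7 bases and 5.2% had another within 10 kb. With 2000 regions, these values were 5.61, 12 bases and 10.7%. Within 2000 bases, 1% had another region. Of the 1000 regions, ranking by −log10 p kept 770 and an upper length of 1000 bases kept 785, while 911 were kept with a mutual overlap of 50%, 994 with no upper length, 1000 with −log10 q of at least 5 in both replicates and 989 without replicate 2 in the choice. These counts had no spread of their own and were only held to a factor of 1.5. The other values of these alternatives stayed within their limits. Ranked by replicate 2 instead, the list overlapped 677 of the 1000 regions, the same count as with the exchanged rule above. It had a median length of 617.5 bases there and left 8.1% with another within 10 kb.

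No paired analysis was possible because no test between groups of samples was run. Base composition and motifs, position at genes and RNA levels of neighbouring genes, with their alternatives, were not run. In the gene table at hand, the 298 sequences that hold genes share no name with the 40 scaffolds. With 2 libraries of 1 stage, no change in time can be read, and depth limits the order of regions near the threshold.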
